A study of Mus musculus with 12 samples.

Results

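Brown adipose tissue (BAT) was set against skeletal muscle (quadriceps), both of which burn fuel in mitochondria. All samples came from 17-wk-old male C57BL/6J mice. NCD-veh mice ate normal chow and received vehicle (veh), HFD-veh mice ate a high fat diet from 8 wk of age and received vehicle, and HFD-ncls mice ate the same high fat diet and received narciclasine (ncls), a plant alkaloid, from 10 wk of age. The series holds 12 RNA-seq libraries, 1 for each of 4 organs under each of 3 conditions, and the members here were the 3 BAT and the 3 muscle libraries. Genes entered when their level was at least 1 FPKM (sequenced fragments scaled to the length of the transcript and to the size of the library) in at least 1 of these 6 libraries, which kept 11381 of the 22276 gene symbols listed, and 7942 of them reached 1 FPKM in all 6. How many mice stood behind a library, and whether BAT and muscle were taken from the same animals, is not stated in the sources used here.

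Brown adipocytes and muscle fibres draw on a shared stock of mitochondrial enzymes but spend the energy differently. Brown adipocytes let protons leak back across the inner mitochondrial membrane through uncoupling protein 1 and release the energy as heat, with fatty acids from their lipid droplets as the main fuel. Muscle fibres capture the energy as ATP, which myosin spends on contraction and the calcium pump spends on relaxation, and fast fibres also draw on glycogen and glycolysis. Brown adipocytes and skeletal muscle descend in part from related cells of the embryonic somites, and limb muscle such as quadriceps forms from cells that migrate into the limb bud.

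Each gene was compared on log2(FPKM + 0.1), as BAT minus muscle, within the 3 pairs of libraries matched by condition (NCD-veh, HFD-veh and HFD-ncls), and values below are given in that order. The fit, limma with a term for condition and Benjamini-Hochberg adjustment over all 11381 genes, sets the organ difference against its variation over the conditions. Conditions are not replicates of an organ, so the adjusted p does not measure the spread between animals. An exact two-sided permutation test of 3 libraries against 3 cannot give a p below 0.1. In whole tissue, fewer cells of a type and less RNA per cell cannot be told apart.

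Every BAT library carried the brown adipocyte markers Ucp1 and Cidea at high level and every muscle library the sarcomere genes, as detailed below. Between 9973 and 10151 genes reached 1 FPKM in a BAT library and between 9130 and 9364 in a muscle library, and the estimated relative depths lay between 0.952 and 1. The 10 most abundant genes held 11.9% to 12.8% of all FPKM in BAT, led by Fabp4, and 35.8% to 36.9% in muscle, led by Acta1. The BAT libraries held muscle genes at unequal level, with fast and shared sarcomere genes at a median of 2.30%, 0.954% and 0.129% of their level in the matched muscle library. HFD-veh muscle held liver genes, with a list of 23 liver genes at a median of 0.583% of their level in HFD-veh liver, against 0.00253% for the NCD-veh and 0.000671% for the HFD-ncls muscle library.

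The organs differed in most genes. Of the 11381 genes tested, 5152 (45.3%) were higher in BAT and 3359 (29.5%) were higher in muscle at an adjusted p under 0.05, so that 74.8% passed in either direction. Over 2-fold in all 3 pairs, 2775 genes (24.4%) were higher in BAT and 1684 (14.8%) in muscle, whereas 4575 (40.2%) stayed within 2-fold in every pair. In 5504 genes (48.4%) the lowest BAT library lay above the highest muscle library, and in 3693 (32.4%) the highest BAT library lay below the lowest muscle library. These shares are the background for the counts in each gene list. The median gene was 0.26 higher in BAT on the log2 scale, and 0.12 higher after the libraries were rescaled by their median ratio, when 4734 genes were called higher in BAT and 3838 in muscle.

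Genes of the brown adipocyte list, fat storage and fat burning lay to the BAT side. Genes of contraction and glycogen use lay to the muscle side. Those of the respiratory chain and the citric acid cycle also lay to the BAT side, with smaller medians. The median log2 difference was 4.002 in the brown adipocyte list, 3.84 in the adipocyte list, 2.29 in fatty acid oxidation, 1.03 in the citric acid cycle and 1.00 in the respiratory chain. It was -1.60 in glycolysis and glycogen, -6.96 in excitation-contraction coupling, -7.08 in the sarcomere genes shared by fast and slow fibres and -7.30 in those of fast fibres.

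**Figure D1:**
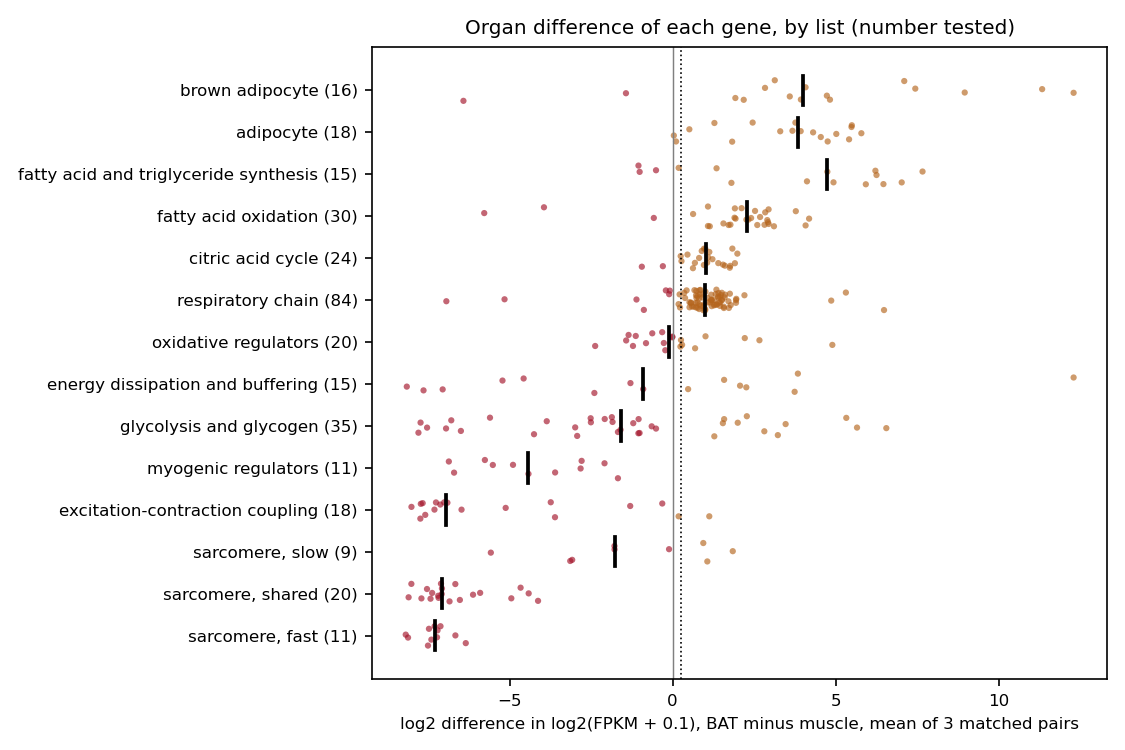
The log2 difference in log2(FPKM + 0.1), BAT minus muscle as the mean of the 3 matched pairs, is plotted for each gene (points) of 14 lists, with brown above 0 and red below 0, the list median as a black bar and the median of all genes tested (0.26) as a dotted line. The fatty acid oxidation, citric acid cycle and respiratory chain medians (2.29, 1.03 and 1.00) lie between the adipocyte median (3.84) and the fast sarcomere median (-7.30), and single respiratory chain genes reach 6.48 and -6.94.

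The brown adipocyte genes separated the organs in every condition. Of the 16 list members tested, 14 were higher in BAT and 2 in muscle, and all 16 passed the test. Ucp1, the proton channel of thermogenesis (chromosome 8, 85814247 to 85822355 on the plus strand of mm9), stood at 769.8, 768.1 and 739.6 FPKM in the BAT libraries and at 0.179, 0 and 0.0247 FPKM in the muscle libraries. Every BAT library was thus high and every muscle library near 0, with a log2 difference of 12.29 (SE 0.29, adjusted p = 2.06e-05), which ranked Ucp1 first among all genes. Cidea, a lipid droplet protein of brown adipocytes, followed with 1509, 1121 and 1269 FPKM in BAT against 0.690, 0.109 and 0.667 in muscle (log2 difference 11.33, SE 0.34). Of the other thermogenic effectors, the potassium channel Kcnk3 differed by 8.95, the proton channel Otop1 by 7.10, the fatty acid elongase Elovl3 by 4.73 and the thyroid hormone deiodinase Dio2 by 2.83. Slc27a2, a fatty acid transporter that liver also makes, differed by 7.44 and read 0.0175, 3.44 and 0.0509 FPKM in muscle, with HFD-veh muscle high. Dio2 was low throughout, at 1.32, 1.62 and 0.484 FPKM in BAT. The beta-3 adrenergic receptor Adrb3, through which noradrenaline acts on brown fat, read 13.4, 51.9 and 24.5 FPKM in BAT and 0.662 to 1.05 in muscle.

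Among 6 transcription factors linked to the brown lineage, 4 were higher in BAT and 2 in muscle. Ebf2 (log2 difference 3.59), Lhx8 (3.13), Prdm16 (2.18) and Zic1 (1.92) were higher in BAT, although no BAT library exceeded 1.88 FPKM for Prdm16, 1.53 for Lhx8 or 1.24 for Zic1. Tbx15, a T-box factor also known for its part in fast fibres, went the other way, with 1.63, 0.882 and 0.447 FPKM in BAT against 76.9, 98.2 and 76.0 in muscle (log2 difference -6.41, SE 0.32, adjusted p = 5.24e-05). Its level in BAT was 2.12%, 0.898% and 0.588% of that in the matched muscle library, in the same order as the sarcomere genes, and the part of muscle RNA in it was not tested. Zfp516 was also higher in muscle (log2 difference -1.43).

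The upstream windows of Ucp1 and of Ckm, the muscle creatine kinase described below, are shown as those of 1 gene called higher in BAT and 1 called higher in muscle. They are the 250 bases before the RefSeq transcription start on GRCm38.p6, a newer build than that of the expression values, at chr8:83290098-83290347 (plus strand) and chr7:19410844-19411093 (plus strand), printed 5′ to 3′ with the myogenic E-box CAGCTG, which binds factors of the MyoD family, in capitals.
Ucp1: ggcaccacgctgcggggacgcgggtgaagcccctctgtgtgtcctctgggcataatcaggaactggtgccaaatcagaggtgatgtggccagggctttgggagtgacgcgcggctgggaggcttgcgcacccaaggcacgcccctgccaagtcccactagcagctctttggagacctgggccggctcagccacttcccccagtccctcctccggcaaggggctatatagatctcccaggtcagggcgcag
Ckm: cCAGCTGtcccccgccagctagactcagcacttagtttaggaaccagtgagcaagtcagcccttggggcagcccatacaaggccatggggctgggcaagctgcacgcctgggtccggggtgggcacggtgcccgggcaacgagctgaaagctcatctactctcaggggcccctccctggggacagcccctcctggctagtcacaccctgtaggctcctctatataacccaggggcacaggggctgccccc
The Ckm window held CAGCTG at 249 to 244 bases before the start, and the Ucp1 window held none. The genes shown and the 4 motifs searched in these windows were chosen after expression values were seen.

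Genes common to white and brown adipocytes were also higher in BAT, in 14 of 18 list members. All 3 adipocyte transcription factors passed, with Pparg, the master regulator of fat cells, at 115.7, 78.4 and 103.9 FPKM in BAT and 1.32, 2.20 and 1.64 in muscle (log2 difference 5.78, SE 0.25). The lipid droplet coat Plin1 (5.48), the lipases Lipe (4.54) and Pnpla2 (3.30) and the fatty acid carrier Fabp4 (5.02) followed. Fabp4 was the most abundant BAT transcript, at 8965, 8605 and 8416 FPKM, and still read 231.6 to 291.4 FPKM in muscle. The 4 members that did not pass were Lep, Retn, Nnat and Plin4, of which Plin4, a droplet coat of fat and muscle, had a 95% interval of -0.37 to 0.58.

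Fatty acid and triglyceride synthesis had a median log2 difference of 4.74, with 11 of 15 members higher in BAT and 3 in muscle. Fasn, the fatty acid synthase, read 705.4, 347.7 and 170.7 FPKM in BAT and 2.24, 4.10 and 1.84 in muscle (log2 difference 7.02, SE 0.38). The BAT libraries were thus high in every condition but unequal, with NCD-veh highest and HFD-ncls lowest. Elovl6 (7.66), Thrsp (6.46), Scd1 (6.25), Acaca (4.93) and Acly (4.74) were higher in BAT in all 3 pairs. For the final step of triglyceride assembly, Dgat2 differed by 5.92 and Dgat1 by 4.12. Malic enzyme Me1 read 74.9, 41.5 and 22.0 FPKM in BAT and 72.6, 99.7 and 77.8 in muscle (log2 difference -1.01, limma adjusted p = 0.0431). It was nearly equal in the NCD-veh pair (0.04) and higher in muscle in the others (-1.26 and -1.82). Gpam (log2 difference -1.05) and Lpin1 (-0.51) were also called higher in muscle. Srebf1, the transcription factor of the pathway, was at 15.9 to 17.4 FPKM in BAT and 13.9 to 15.4 in muscle (log2 difference 0.18, 95% interval -0.09 to 0.46).

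The 10 genes with the largest least difference toward BAT also included members outside the adipocyte lists. Ntrk3, a neurotrophin receptor, read 50.1 to 75.7 FPKM in BAT and at most 0.0712 in muscle. The amino acid transporter Slc36a2 read 182.4 to 198.1 FPKM against 0.647 to 1.09, and Tkt, the transketolase of the pentose phosphate pathway, 276.9 to 562.7 against 1.96 to 3.23. S100b, Cyp2b10 and Aspg completed the set, with log2 differences of 7.77, 7.16 and 8.53. S100b, a calcium-binding protein used here as a glial marker, read 33.7, 115.5 and 90.3 FPKM in BAT and at most 0.361 in muscle, whereas the myelin gene Mbp read 11.4, 6.97 and 6.73 FPKM in BAT and 1.47 to 2.66 in muscle.

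The contractile genes separated the organs in the other direction. All 11 fast and all 20 shared sarcomere genes tested were higher in muscle. Acta1, the actin of skeletal muscle, read 24220 FPKM in NCD-veh muscle against 477.8 in NCD-veh BAT, 22749 against 217.0 in the HFD-veh pair and 23146 against 26.8 in the HFD-ncls pair (log2 difference -7.37, SE 0.75, adjusted p = 0.000453). The muscle libraries lay within a narrow range while the BAT libraries differed among themselves, and in 30 of the 31 fast and shared genes the BAT level was highest in NCD-veh, next in HFD-veh and lowest in HFD-ncls. The same order held for the fast troponins Tnnt3 (300.0, 138.6 and 22.4 FPKM in BAT) and Tnni2, the fast myosin Myh1, the Z-disc actinin Actn3 and the calcium buffer Pvalb. Smpx was the exception, listed at 0.000157, 0.000153 and 0.474 FPKM in BAT. Together the 31 genes held 1.00%, 0.423% and 0.0956% of all FPKM in the BAT libraries and 33.1%, 33.1% and 32.1% in the muscle libraries. The fast list had a median log2 difference of -5.55 in the NCD-veh pair, -6.96 in the HFD-veh pair and -9.58 in the HFD-ncls pair. Myh4, the myosin of the fastest fibres, had no value in muscle.

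The sarcomere genes were not alone in that order within BAT. Among the 1684 genes over 2-fold higher in muscle in all pairs, 733 (43.5%) had this order in BAT, against 23.3% of all genes tested. In 285 of the 1684 (16.9%) the NCD-veh BAT level exceeded the HFD-ncls BAT level by over 2-fold, against 3.72% of all genes. The part of muscle RNA in the BAT levels of single genes was not tested.

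**Figure D2:**
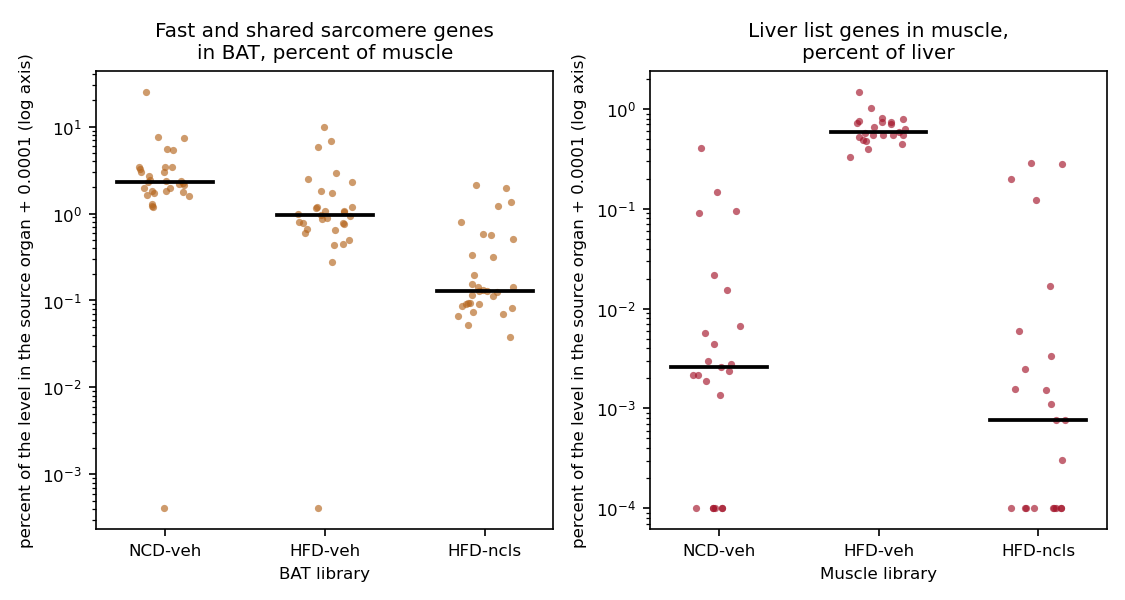
The left panel plots each of 31 fast and shared sarcomere genes (points) in the 3 BAT libraries as percent of its level in the matched muscle library, and the right panel each of 23 liver genes in the 3 muscle libraries as percent of its level in the matched liver library, both on log axes with 0.0001 added and the median as a bar. The medians in BAT step down from 2.30% through 0.954% to 0.129%, and the liver median is 0.583% in HFD-veh muscle against 0.00253% and 0.000671% in the others.

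Slow-fibre genes did not follow the fast ones. Of 9 slow sarcomere genes tested, 3 were higher in muscle (Mybpc1, Myoz2 and Myh7), 1 was higher in BAT (Tpm3, log2 difference 1.84) and 5 passed in neither direction. Myl2, the slow regulatory light chain, read 8.25, 12.1 and 1.03 FPKM in BAT and 10.5, 0.735 and 16.2 in muscle, so that it was higher in BAT in the HFD-veh pair and higher in muscle in the others. Tnnc1 (4.77, 7.70 and 1.54 FPKM in BAT, 4.64, 0.211 and 4.56 in muscle) was nearly equal in the NCD-veh pair, higher in BAT in the HFD-veh pair and higher in muscle in the HFD-ncls pair (log2 differences 0.04, 4.65 and -1.51). Tnni1 read 4.64, 3.98 and 0.132 FPKM in BAT against 1.42, 0.0840 and 2.18 in muscle. Of the 10 slow genes listed, 3 were higher in BAT than in muscle in the NCD-veh pair, 6 in the HFD-veh pair and 1 in the HFD-ncls pair. In HFD-veh BAT the 41 sarcomere genes of the 3 lists had a median log2 difference of 0.51 from the mean of the other BAT libraries, with 34 higher and 7 over 2-fold higher. That mean includes the low HFD-ncls library. HFD-veh was the middle BAT library in 30 of the 31 fast and shared genes, and the highest in 6 of the 10 slow genes.

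Calcium handling and excitability followed the contractile genes. All 11 genes of calcium release and all 3 of membrane excitability were higher in muscle, among them the release channel Ryr1 (3.27, 1.35 and 0.135 FPKM in BAT, 278.6, 225.9 and 311.4 in muscle, log2 difference -8.01), the voltage sensor Cacna1s (-7.26), the calcium store protein Casq1 (-7.66) and the sodium channel Scn4a (-7.74). The calcium pumps split by isoform. Atp2a1, the pump of fast fibres, read 9660 to 10618 FPKM in muscle and 10.2 to 141.1 in BAT, whereas Atp2a2, the pump found in slow fibres and most other cells, was higher in BAT (16.3, 16.4 and 12.9 FPKM against 7.31, 4.84 and 9.20, log2 difference 1.12, adjusted p = 0.00814). The pump inhibitor Pln did not pass, at 1.14 to 1.42 FPKM in BAT and 1.08 to 1.25 in muscle (log2 difference 0.18).

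All 11 myogenic regulators tested were higher in muscle. Myod1, the founding factor of the muscle lineage, read 0.276, 0.0666 and 0.0444 FPKM in BAT and 9.72, 13.01 and 11.02 in muscle (log2 difference -5.76, SE 0.35). The growth inhibitor Mstn (-6.86) and Myf6 (-6.70) differed most among these 11, and Mef2a (-1.68) and Mef2d (-2.09) least.

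The 10 genes with the largest least difference toward muscle were led by Hoxc10. Plcd4, a phospholipase C, read 0.258, 0.181 and 0.120 FPKM in BAT and 51.7, 46.7 and 45.9 in muscle (log2 difference -7.42, SE 0.14). The lactate exporter Slc16a3 read 0.353 to 0.948 FPKM in BAT and 104.9 to 148.6 in muscle (-7.33), and the nicotinamide riboside kinase Nmrk2 17.3 to 39.1 in muscle with at most 0.0923 in BAT (-7.33). Camk2a, a calmodulin-dependent kinase, Asb2, Ky, Mettl21c, 2310015B20Rik and the T-box factor Tbx1 lay between -7.98 and -7.04.

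Positional genes divided the organs by their number. Hox genes are ordered along the body axis, with low numbers expressed from the neck downward and high numbers in the lower trunk and limbs. Of 22 Hox genes tested, 11 were higher in BAT, 8 in muscle and 3 in neither, against 45.3% and 29.5% of all genes tested higher in BAT and in muscle. All 11 that were higher in BAT had numbers from 2 to 7, with Hoxa5 at 10.998, 9.78 and 10.9 FPKM in BAT against 1.38, 1.09 and 1.02 in muscle (log2 difference 3.08, SE 0.13) and Hoxb4 at 3.60. All 8 that were higher in muscle had numbers from 8 to 11. Hoxc10 (chromosome 15, 102797227 to 102802324 on the plus strand of mm9) read 60.02, 67.2 and 53.7 FPKM in muscle and 0, 0.0214 and 0 in BAT (log2 difference -9.14, SE 0.12, limma adjusted p = 2.06e-05). This was the largest log2 difference toward muscle of all genes tested. Hoxa10, Hoxc9 and Hoxc11 were listed at 0 in all 3 BAT libraries and at 4.68 to 5.72, 6.85 to 7.59 and 2.22 to 2.84 FPKM in muscle. Hoxa7, Hoxc4 and Hoxc6 did not pass, with Hoxc6 at 5.07 to 6.15 FPKM in BAT and 4.74 to 5.10 in muscle. Outside the Hox family, Lbx1, a factor of muscle precursors that migrate to the limb, read 31.7, 31.5 and 28.7 FPKM in muscle and 0.265, 0 and 0 in BAT, and the forelimb factor Tbx5 was higher in BAT (0.797, 1.47 and 1.23 FPKM against at most 0.135).

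**Figure D3:**
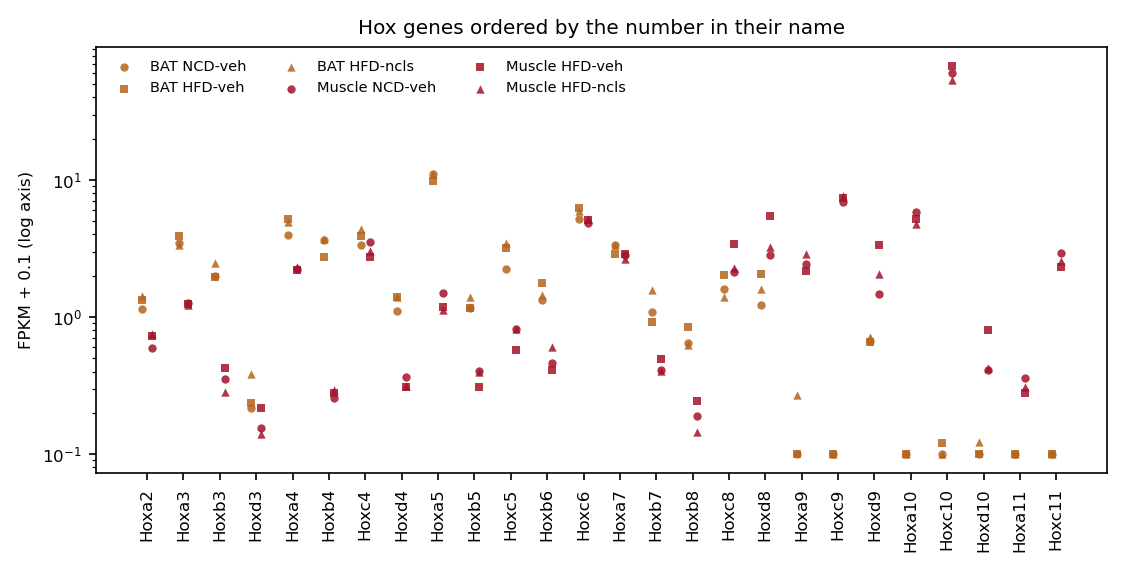
FPKM + 0.1 on a log axis is plotted for each listed Hox gene, ordered by the number in its name, in the 3 BAT (brown) and the 3 muscle libraries (red), with a marker shape for each condition. The BAT points lie above the muscle points for most genes numbered 2 to 7, and from number 9 the BAT points of most genes sit at the floor while Hoxc10 reaches 67.2 FPKM in muscle.

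Glycolysis and glycogen genes leaned to muscle but split by isoform, with 23 of 35 higher in muscle and 11 in BAT. Enzymes used in most tissues were a few fold higher in muscle, as for Tpi1 (133.1 to 154.5 FPKM in BAT, 756.5 to 951.1 in muscle, log2 difference -2.51), Aldoa (-2.93), Gapdh (-1.87) and Pgk1 (-1.04). The forms of muscle fibres differed far more, with the glycogen phosphorylase Pygm at -7.79, the mutase Pgam2 at -7.73, the phosphorylase kinase subunits Phkg1 at -7.53 and Phka1 at -6.49, and the enolase Eno3 at -6.79. Their counterparts of other tissues were higher in BAT, with Pygl at 6.55, the phosphofructokinase Pfkl at 5.65 and Pgam1 at 5.32. Ldhb, the lactate dehydrogenase subunit of oxidative tissues, read 258.6, 237.5 and 256.0 FPKM in BAT and 31.6, 18.7 and 32.2 in muscle (log2 difference 3.22), and Ldha was higher in muscle (-2.08). The BAT levels of Pygm (37.8, 19.1 and 4.18 FPKM), Pgam2 and Eno3 followed the order of the sarcomere genes.

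Oxidative genes took a larger share of FPKM in BAT than in muscle, and most were higher in BAT. The respiratory chain, citric acid cycle and fatty acid oxidation lists joined held 23.1%, 24.9% and 26.1% of all FPKM in the BAT libraries and 7.36%, 7.07% and 7.18% in the muscle libraries. Of the 138 genes, 121 were called higher in BAT and 9 in muscle, with a median log2 difference of 1.18, against 0.26 for all genes. Within 2-fold in all pairs were 43 of the 138, and 34 of the 84 respiratory chain genes, against 40.2% of all genes tested. Staying within 2-fold was thus no more frequent among oxidative genes than among all genes.

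The 10 oxidative genes within 2-fold in every pair that had the highest level in the lower organ were ATP synthase, complex I and complex IV subunits and 2 citric acid cycle enzymes. Atp5a1, the alpha subunit of ATP synthase, read 724.6, 753.8 and 712.8 FPKM in BAT and 607.8, 534.6 and 544.5 in muscle (log2 difference 0.38, 95% interval 0.14 to 0.62). Atp5c1, the central stalk subunit, was nearest to equal, at 255.6, 250.3 and 260.2 FPKM in BAT and 278.0, 280.4 and 267.1 in muscle (-0.11, 95% interval -0.34 to 0.12). Malate dehydrogenase Mdh2 (0.45), the complex I subunit Ndufs7 (0.55), the complex IV subunit Cox5a (0.70) and citrate synthase Cs (0.81) were higher in BAT by less than 2-fold, and all 4 passed the test. Atp5e, Atp5l and Atp5o were also in the set.

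By complex, the tilt toward BAT was smallest in ATP synthase and largest in complex IV. The median log2 difference was 0.52 over 17 ATP synthase genes, 0.86 over 37 complex I genes, 1.14 over 4 complex II genes, 1.17 over 10 genes of complex III and cytochrome c and 1.67 over 16 complex IV genes, and no test between complexes was made. After rescaling these were 0.38, 0.72, 1.00, 1.03 and 1.53. ATP synthase held 3 genes that were higher in muscle. They were Atp5g1 (12.1, 10.96 and 5.63 FPKM in BAT, 364.4, 306.6 and 312.0 in muscle, log2 difference -5.15) and Atp5g3 (-1.11), both of which encode the membrane ring subunit, and Atp5j (-0.88). Atp5g2, the remaining ring gene, did not pass, at 227.9 to 276.3 FPKM in BAT and 205.3 to 217.2 in muscle (0.21).

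In the citric acid cycle list, 20 of 24 genes were higher in BAT, 2 were higher in muscle and 2 did not pass. Idh3b, a subunit of isocitrate dehydrogenase, read 515.0, 552.3 and 570.4 FPKM in BAT and 158.9, 162.0 and 160.6 in muscle (log2 difference 1.76), and Suclg1 (1.83) and the carboxylase Pcx (1.91) were also higher in BAT. Pdk2, a kinase that switches pyruvate dehydrogenase off, was higher in muscle (-0.95). Its relative Pdk4 read 323.7, 352.6 and 297.6 FPKM in BAT and 403.6, 121.9 and 414.6 in muscle, so that only HFD-veh muscle was low (log2 difference 0.25, 95% interval -0.77 to 1.26). Without the HFD-veh pair the Pdk4 difference was -0.40.

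Fatty acid oxidation tilted further toward BAT than the respiratory chain in list median, with 27 of 30 genes higher in BAT and all 17 of the beta-oxidation spiral among them. The thiolase Acaa2 read 718.1, 1010 and 979.9 FPKM in BAT and 47.2, 49.8 and 62.9 in muscle (log2 difference 4.07, SE 0.12). Hadh (3.10), Echs1 (2.94), Acadl (2.92), Hadhb (2.90), Acadvl (2.59) and the electron carrier Etfb (2.94) were also higher in every pair. At the entry step, the carnitine carrier Slc25a20 differed by 2.84, whereas Cpt1b, the carnitine palmitoyltransferase that muscle and brown fat share, differed by 1.08 (183.6, 249.9 and 239.3 FPKM in BAT, 106.1, 91.7 and 118.8 in muscle). The 3 genes higher in muscle were the acyl-CoA synthetase Acsl6 (at most 0.223 FPKM in BAT, 10.6 to 10.9 in muscle) and Bdh1 and Oxct1, enzymes of ketone body use.

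Where a protein has a muscle form and another form, the organs often used different genes, although not in every pair. The share of the muscle form in the summed FPKM of both forms was higher in every muscle library than in any BAT library for 16 of 19 pairs, and for none was it higher in BAT. The label of muscle form was given when the pairs were chosen, so this direction was largely built in, and no background share was available. Some pairs, such as Ucp3 with Ucp1 and Fabp3 with Fabp4, are relatives rather than forms of the same protein. It lay over 50% in all muscle libraries and under 50% in all BAT libraries in 8 pairs, and over 50% in all libraries of both organs in 7. The cytochrome oxidase subunits spanned this range. Cox6a2 (chromosome 7, 135348950 to 135349880 on the minus strand of mm9) made up 98.4%, 98.2% and 98.3% of subunit 6A transcripts in muscle and 1.38%, 1.05% and 0.0933% in BAT. Its FPKM was 1520.3, 1598 and 1529.9 in muscle, and its BAT values of 38.3, 22.9 and 2.18 followed the order of the sarcomere genes. Cox6a1 read 2743, 2169 and 2329 FPKM in BAT and 24.8, 29.5 and 26.4 in muscle (log2 difference 6.48, SE 0.14). For subunit 8 the muscle form prevailed in both organs, with Cox8b at 70.3%, 76.6% and 78.2% in BAT and 96.5%, 96.3% and 96.2% in muscle. Cox8b read 4380, 5142 and 5863 FPKM in BAT and 1112, 1151 and 1063 in muscle, and BAT carried Cox8a besides, at 1573 to 1847 FPKM against 40.9 to 43.7 (log2 difference 5.31). The muscle form of subunit 7A, Cox7a1, took 80.6%, 84.8% and 84.9% in BAT and 87.9%, 87.9% and 87.5% in muscle. In WAT (white adipose tissue) Cox8b made up 4.66% to 10.8% and Cox7a1 10.0% to 17.9%, and in liver at most 0.202% and 3.97%. Other genes labelled muscle forms prevailed elsewhere as well. Ldha beside Ldhb made up 82.5% to 90.6% in WAT and 99.4% to 99.5% in liver. Slc2a4 beside Slc2a1 made up 87.1% to 93.6% in WAT, but at most 17.4% in liver.

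The upstream windows of Cox8b and Cox8a are shown because these genes encode forms of the same subunit, the first used in both organs and the second far more in BAT. They lie at chr7:140900447-140900696 (minus strand) and chr19:7217617-7217866 (minus strand) of GRCm38.p6 and end at the base before the RefSeq start.
Cox8b: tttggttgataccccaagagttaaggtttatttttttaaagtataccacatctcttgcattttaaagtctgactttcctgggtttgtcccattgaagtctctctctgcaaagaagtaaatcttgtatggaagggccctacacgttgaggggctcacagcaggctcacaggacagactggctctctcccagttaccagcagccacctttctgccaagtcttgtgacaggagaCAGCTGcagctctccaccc
Cox8a: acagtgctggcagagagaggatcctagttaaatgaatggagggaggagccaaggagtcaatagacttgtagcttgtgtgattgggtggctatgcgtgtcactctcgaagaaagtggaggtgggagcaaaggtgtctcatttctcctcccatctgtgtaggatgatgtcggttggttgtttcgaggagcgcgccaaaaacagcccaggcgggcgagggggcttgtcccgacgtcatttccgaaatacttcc
The Cox8b window held CAGCTG (capitals) at 19 to 14 bases before the start, and the Cox8a window held none.

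**Figure D4:**
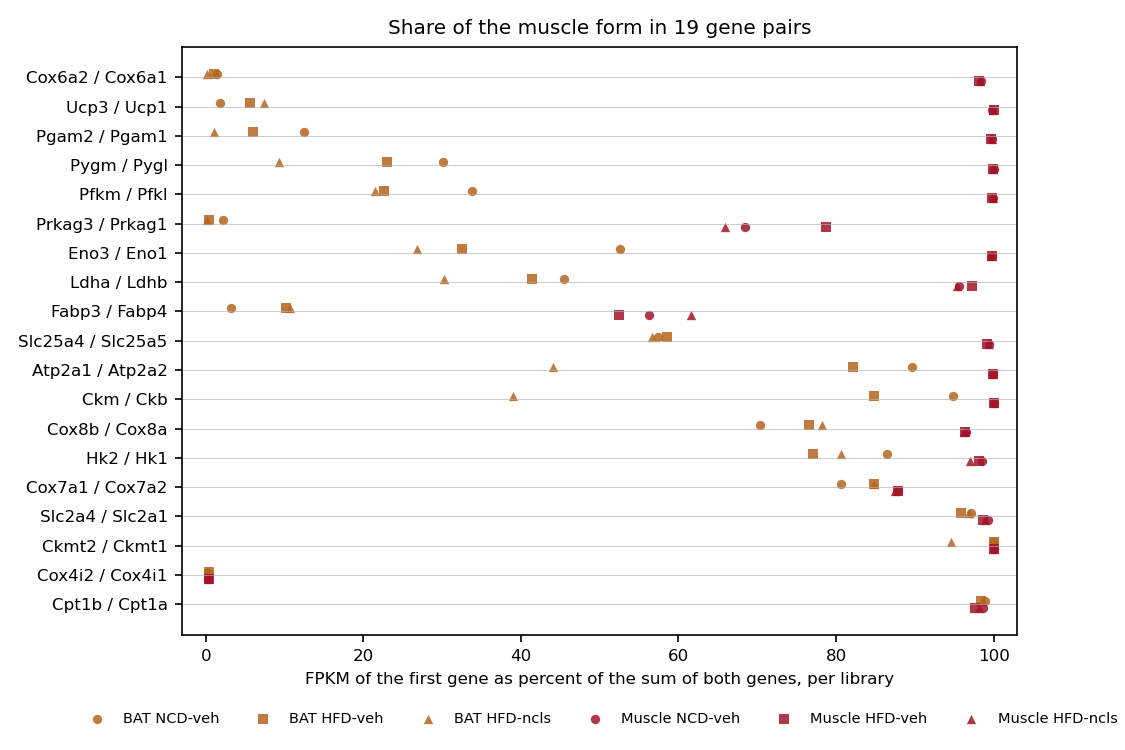
The FPKM of the first-named gene as percent of the sum of both genes is plotted for 19 pairs in each of the 3 BAT (brown) and 3 muscle libraries (red), with a marker shape for each condition, on a linear axis from 0 to 100%. Muscle points of Cox6a2, Ucp3, Pgam2, Pygm and Pfkm sit at 98.2% or more with BAT points at 33.8% or less, while Cox7a1, Cpt1b and Slc2a4 lie at 80.6% or more in both organs.

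The adenine nucleotide translocase Slc25a4, which exchanges ATP for ADP across the inner membrane, made up 57.4%, 58.5% and 56.6% in BAT and 99.4%, 99.2% and 99.4% in muscle beside Slc25a5. The regulatory AMPK subunit Prkag3 held 68.4%, 78.7% and 65.9% in muscle beside Prkag1 and at most 2.22% in BAT. The 3 pairs whose libraries overlapped were Cox4i2 with Cox4i1 (at most 0.380% in any library), Ckmt2 with Ckmt1, and Cpt1b with Cpt1a (97.6% to 98.9% in any library). For Ckm beside Ckb the BAT share was 94.9%, 84.8% and 39.0%, and for Atp2a1 beside Atp2a2 it was 89.6%, 82.2% and 44.1%, both in the order of the sarcomere genes. Whether the muscle form in these BAT libraries came from brown adipocytes was not tested.

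Genes that spend or buffer energy fell on both sides. Of 15 tested, 6 were higher in BAT and 7 in muscle, against 45.3% and 29.5% of all genes tested. Of the relatives of Ucp1, Ucp2 was also higher in BAT (log2 difference 2.26). Ucp3 did not pass, at 14.5, 45.5 and 58.8 FPKM in BAT and 115.1, 52.7 and 95.2 in muscle (-1.29, limma adjusted p = 0.0715). Ckm, which moves phosphate between creatine and ATP beside the myofibrils, read 16456, 16147 and 15744 FPKM in muscle and 247.5, 120.1 and 17.7 in BAT (-7.64). Ckb, its counterpart of other tissues, was higher in BAT (13.4, 21.5 and 27.7 FPKM against 1.21 to 1.38, log2 difference 3.84). Myoglobin Mb, the oxygen store, read 839.0, 609.0 and 744.9 FPKM in muscle and 94.9, 33.1 and 8.92 in BAT. That is 11.3%, 5.43% and 1.20% of the muscle level, above the sarcomere median in each pair and in the same order. The carbonic anhydrases Car3 (1.58) and Car4 (3.74) were higher in BAT.

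The regulators of oxidative genes went both ways. Of 20 tested, 5 were higher in BAT and 7 in muscle, against 45.3% and 29.5% of all genes tested. The remaining 8 passed in neither direction, and the list median was -0.12. Ppargc1a, the coactivator that drives mitochondrial biogenesis in both tissues, read 3.23, 2.42 and 2.83 FPKM in BAT and 3.51, 3.798 and 2.98 in muscle (-0.27, 95% interval -0.67 to 0.12). Its relative Ppargc1b was higher in BAT (18.8, 18.9 and 17.6 FPKM against 2.45, 3.02 and 3.07, log2 difference 2.66). The fatty acid receptor Ppara was the furthest toward BAT, at 35.2, 45.1 and 41.7 FPKM against 1.20, 1.23 and 1.37 (4.89, SE 0.12). Ppard (-0.82), Rxra (-2.38), Rxrg (-1.43) and the mitochondrial DNA factor Tfam (-1.13) were higher in muscle. The oestrogen-related receptor Esrra read 33.2 to 33.7 FPKM in BAT and 24.5 to 29.5 in muscle (0.29, adjusted p = 0.0564).

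Some genes joined BAT and muscle and set them apart from the remaining organs. The rule, chosen after values were seen, asked for at least 1 FPKM and a difference within 4-fold between BAT and muscle in all pairs, and then for the lowest BAT or muscle library to exceed the highest WAT or liver library, all on FPKM + 0.1. Of 6590 genes that met the first part, 42 (0.637%) exceeded every WAT and liver library by over 2-fold, 14 by over 4-fold and 6 by over 8-fold. Of the 42, 14 were in the oxidative lists, which held 106 of the 6590. Fabp3, the fatty acid carrier of heart and muscle, led with 294.9, 976.5 and 1001.7 FPKM in BAT and 298.5, 312.6 and 466.2 in muscle against at most 1.66 in white adipose tissue and 0.421 in liver, a 167.9-fold gap between the lowest and the highest on FPKM + 0.1. Cox7a1 (37.8-fold) and Cpt1b (35.8-fold) came next. Mapt, the microtubule protein tau, read 11.9 to 20.4 FPKM in BAT and 14.8 to 16.4 in muscle (log2 difference 0.08, 95% interval -0.38 to 0.53), with at most 1.00 elsewhere. Mitochondrial malic enzyme Me3, the phosphatase Phospho1, the fructose bisphosphatase Fbp2 and the cristae protein Apoo were also among the 14. Apoo was nearly equal, at 76.8 to 81.4 FPKM in BAT and 71.3 to 80.6 in muscle.

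**Figure D5:**
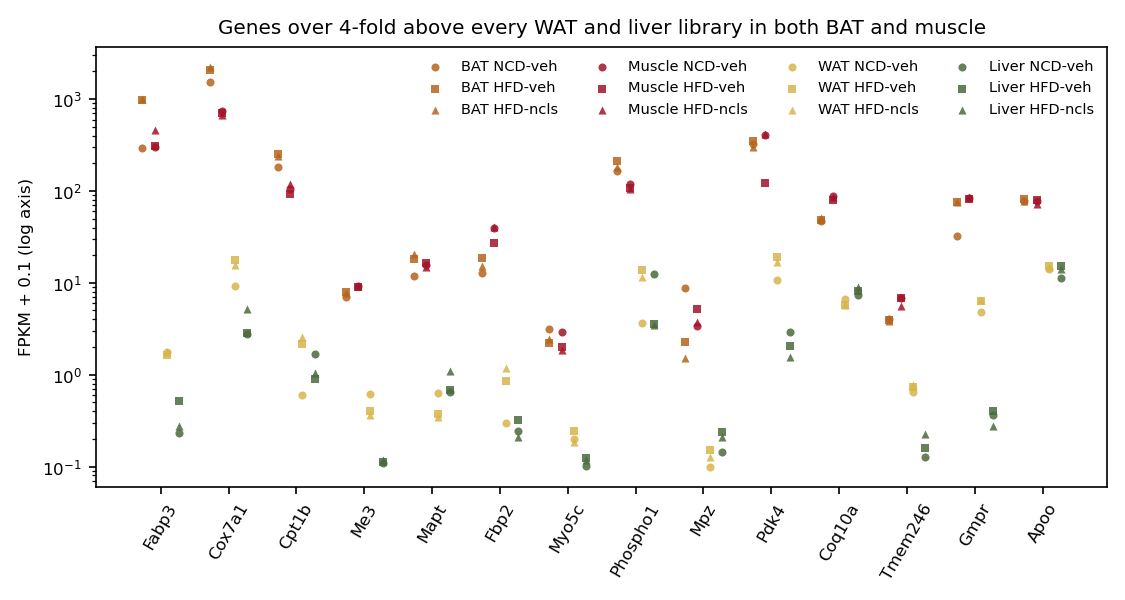
FPKM + 0.1 on a log axis is plotted for the 14 genes that exceeded every WAT and liver library by over 4-fold in both BAT and muscle, with 12 points per gene coloured by organ (BAT brown, muscle red, WAT yellow, liver green) and shaped by condition. Fabp3 shows the widest gap, from 294.9 FPKM in the lowest BAT or muscle library to 1.66 in the highest WAT or liver library.

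The windows of Fabp3 and Cox7a1 are shown as those of the genes that most joined BAT and muscle. They lie at chr4:130308488-130308737 (plus strand) and chr7:30183921-30184170 (plus strand) of GRCm38.p6.
Fabp3: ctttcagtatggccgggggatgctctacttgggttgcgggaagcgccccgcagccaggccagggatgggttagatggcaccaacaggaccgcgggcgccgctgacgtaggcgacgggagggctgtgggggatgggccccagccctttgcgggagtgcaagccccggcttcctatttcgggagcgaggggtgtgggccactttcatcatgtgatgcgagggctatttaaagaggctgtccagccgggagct
Cox7a1: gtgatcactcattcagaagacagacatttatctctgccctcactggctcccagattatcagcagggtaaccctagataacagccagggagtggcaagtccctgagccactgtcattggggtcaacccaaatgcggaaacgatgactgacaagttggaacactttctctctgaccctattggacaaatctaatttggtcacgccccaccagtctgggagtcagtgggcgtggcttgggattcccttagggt
Neither window held CAGCTG, the TATA box TATAAA, the palindromic site of nuclear respiratory factor 1 or the oestrogen-related receptor site TCAAGGTCA on either strand.

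RefSeq windows matched 8428 of the 11381 genes tested. CAGCTG was found on either strand in 13% of 32851 RefSeq windows of 250 bases, in 12.3% of those of genes tested, in 13.1% of genes over 2-fold higher in BAT, in 16.5% of genes over 2-fold higher in muscle and in 11.2% of the oxidative lists. TATAAA stood in 12.4%, 6.79%, 7.42%, 7.69% and 4.48%, and the nuclear respiratory factor 1 site in 0.782%, 1.65%, 1.05%, 1.34% and 3.73%, of which the last is 5 of 134 windows. TCAAGGTCA stood in 0.387%, 0.296%, 0.350%, 0.244% and 1.49%, the last being 2 windows. These shares are descriptions, and a match is not a bound site.

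Markers of some other cell types also differed between the organs. All 5 endothelial genes were higher in BAT, with Pecam1 at 42.0, 51.9 and 46.7 FPKM against 10.4, 12.4 and 10.5 (log2 difference 2.07, SE 0.10) and a list median of 2.07. Of 5 macrophage genes 4 were higher in BAT (median 0.95), and of 5 nerve genes 4 (1.51). Of 6 connective tissue genes 1 was higher in BAT and 1 in muscle (-0.09). Among all genes tested, 45.3% were higher in BAT and 29.5% in muscle. No macrophage gene was over 2-fold higher in BAT in all 3 pairs. The haemoglobin gene Hbb-b1 read 447.5, 326.4 and 268.3 FPKM in BAT and 67.9 to 83.7 in muscle. No lymphocyte gene reached 1 FPKM. The part of these cells in the organ differences was not tested.

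Liver genes marked HFD-veh muscle. Alb, the serum albumin, read 0.500, 224.3 and 0.329 FPKM in the muscle libraries and at most 0.159 in BAT. Apoa2 read 0.348, 117.1 and 0.112 FPKM in muscle, Fabp1 0.511, 58.4 and 0, and Apoa1 0.235, 54.4 and 0.137. In each the HFD-veh library was high and the others at 0.511 FPKM or less. Over 23 liver genes, HFD-veh muscle exceeded the mean of the other muscle libraries by a median of 5.74 on the log2 scale, and all 23 were over 2-fold higher. Their level was 0.331% to 1.47% of that in HFD-veh liver.

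Within the organ comparison, the counts of liver genes differed by pair. Of 22 tested with a liver value, 21 were over 2-fold higher in muscle in the HFD-veh pair (19.2% of all genes tested), 5 in the NCD-veh pair (17.4% of all) and 2 in the HFD-ncls pair (20.3% of all). Over 2-fold higher in BAT were 1, 6 and 5 of them in the same order of pairs, against 31.1%, 31.4% and 29.1% of all genes tested. Only in the HFD-veh pair were 230 genes over 2-fold higher in muscle, and 139 of them (60.4%) were liver genes by a broader rule chosen after values were seen, which held 214 of the genes tested. That rule asked for at least 10 FPKM in every liver library. It also asked for every liver library to be at least 20-fold above the BAT, NCD-veh muscle and HFD-ncls muscle libraries. Only HFD-veh muscle was left free, so the counts by this rule were largely fixed by it and are descriptions. Of those 214, 10 were called higher in muscle, and 5 were when the HFD-veh pair was left out. Among the 1684 genes over 2-fold higher in muscle in all pairs, 7 were liver genes by that rule. Haptoglobin Hp, a plasma protein that fat also makes, was the liver list gene called higher in BAT (275.7, 304.9 and 177.8 FPKM against 3.90, 23.6 and 5.27), and Apoh the gene called higher in muscle (0.337, 10.8 and 0.254 FPKM against at most 0.0747, adjusted p = 0.0440). No gene of the liver list was among the 20 genes that most separated the organs.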

How the data were processed

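RNA-seq was done on 1 library per organ and condition. FPKM values per RefSeq gene were deposited by the authors, who had mapped the reads with TopHat (mm9) and used Cufflinks for quantification. Counts are not used here, so the depth is known only relatively, from the step between low FPKM values, and no counting interval can be given. FPKM is a share of the library, so abundant sarcomere transcripts lower the level of other muscle genes. Here, log2(FPKM + 0.1) of 11381 genes with at least 1 FPKM in at least 1 of 6 libraries was fitted with limma 3.58.1 (R 4.3.3) with terms for organ and condition, eBayes with trend, and Benjamini-Hochberg adjustment. The residual had 2 degrees of freedom and the prior 3.35. A fold is on the log2(FPKM + 0.1) scale and understates changes of low genes.

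The genes named were members of 22 lists (421 of 427 entries found) and 19 isoform pairs, the 10 genes per direction with the largest least difference over the pairs among those called, the 10 oxidative genes within 2-fold in all pairs with the highest level in the lower organ, the 3 oxidative genes furthest to each organ, and list members whose HFD-veh library differed over 4-fold from both others of the organ. Members and lists were chosen with earlier results of these data known. The genes with promoter windows, the motifs, and the rules for shared, liver and BAT-ordered genes were chosen after values were seen, as were those named outside these rules. Some genes that met these rules are not reported here. Promoter windows came from RefSeq (GRCm38.p6), and gene positions from GENCODE on NCBIM37, which is mm9. The fit was tested on simulated data of 10246 genes for this comparison and recovered 98 of 100 genes changed by 1 on the log2 scale and 100 of 100 changed by 2, with 8 false calls among 206. The simulation gave every gene the same noise, no effect of condition and few changed genes, unlike these data. Its rates therefore check the code and need not hold for this comparison. Alternatives covered the pseudocount, filter, scaling, model terms and libraries left out. Python 3.11.15, numpy 2.4.6, pandas 2.3.3 and matplotlib 3.10.9 were used.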

Additional observations from a re-analysis of the deposited data

Results flagged for a closer look

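Liver genes stood in HFD-veh muscle, an organ that should lack them, at a median of 5.74 on the log2 scale above the other muscle libraries. The part of this signal in other muscle differences was not tested.

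Among 425 genes checked, the following differed over 2-fold in opposite directions in BAT and muscle under the same change of condition. With 1 library each, the difference was not tested. Values are the log2 change in BAT minus that in muscle. HFD-veh was below NCD-veh in BAT and above it in muscle for the adipokine Retn (-2.96), the desaturase Scd1 (-2.42) and the liver list genes Apoc3 (-10.65), Trf (-3.49), Cyp2e1 (-3.34) and Hpd (-8.23), whereas Ucp3 went the other way (2.77). HFD-ncls was below HFD-veh in BAT and above it in muscle for the slow-fibre genes Myh7 (-4.41), Myl2 (-7.73), Myl3 (-6.88), Tnni1 (-7.77) and Tnnc1 (-6.16) and for the thin filament gene Lmod2 (-3.85), and Hpd went the other way (7.98). Muscle genes in BAT were lowest in the HFD-ncls library and liver genes were highest in HFD-veh muscle, and their part in these changes was not tested.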

How the results depend on the processing

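Of 153 alternative values for the main results, 134 stayed within the limits and 19 moved, and none changed direction. The brown adipocyte median was 2.74 with a pseudocount of 1, 4.73 with 0.01, 4.82 with a minimum of 5 FPKM, and 3.89 to 4.46 when 1 condition was left out. With a minimum of 5 FPKM, 3054 genes were called higher in BAT, 1696 were over 2-fold higher in BAT and 2731 within 2-fold, and with no filter 8785 lay within 2-fold. A limit of 4-fold gave 1052 genes in BAT, 868 in muscle and 8040 within it. Rescaling gave medians of 0.86 in the respiratory chain, 0.89 in the citric acid cycle and -1.74 in glycolysis and glycogen. The liver median in HFD-veh muscle was 3.05 with a pseudocount of 1 and 7.52 with 0.01. The HFD-ncls pair alone, chosen after seeing the data, gave 1.08 in the respiratory chain, -9.58 in fast and -8.90 in shared sarcomere genes.

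Among 1129 alternative values for single genes, 1053 kept direction and call, 26 lost the call, 26 gained it and 24 changed sign. With a pseudocount of 1, Apoa2 was -0.79 and Apoc3 -0.64, and after rescaling Apoa2 was -0.0584 and Mapt -0.0591. Over the settings that left out 1 condition, Apoa2 ranged from -1.50 to 2.75, Apoc3 from -1.64 to 3.68, Mapt from -0.11 to 0.31, Myl2 from -2.10 to 1.76, Tnni1 from -0.83 to 3.06, Tnnc1 from -0.73 to 2.35, Trf from -0.98 to 0.76 and Pdk4 from -0.40 to 0.61. Leaving out the HFD-veh pair or either of its libraries set Tnni1, Tnnc1 and Pdk4 below 0 (-0.83, -0.73 and -0.40) and Trf above it (0.76), and Tdo2 was 0.0043 without HFD-veh BAT. The cause was not tested. The reported fit matched the libraries by condition, and without that term 5289 genes were higher in BAT and 3490 in muscle. No paired analysis was possible because, by replicate number, every library is 1, which pairs nothing beyond the condition already in the fit.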
